A study of Mus musculus with 16 samples.

Results

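Group 2 innate lymphoid cells (ILC2s) of the mediastinal lymph node, which drains the lung, were compared between 2 times after mice had received the cytokine IL-33 intranasally. The samples were 3 arrays labelled day 4 and 3 arrays labelled week 2, so 6 of the 16 arrays of the series were members, and each gene with a probe set of 1 symbol was tested through its probe set of highest mean, which gave 22180 genes. The other 10 arrays held lung ILC2s from naive mice (n = 2) and from mice at day 4 (n = 3), week 2 (n = 3) and month 4 (n = 2) after IL-33. They entered the fit for the shared estimate of spread, and the day 4 and week 2 lung arrays served as a second tissue. All 6 node arrays came from IL-33-treated mice, and no node array from an untreated mouse was analysed here. The labels give the strain C57BL/6J for the lung arrays only and name no genetic alteration for any group. They call the arrays of a group biological replicates but do not say how many animals went into each. The sources used here do not state the sort markers or the dose of IL-33.

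ILC2s are lymphocytes without rearranged antigen receptors that respond to IL-33, an alarm signal released by damaged epithelium, by dividing and by secreting type 2 cytokines such as IL-5 and IL-13. A dividing lymphocyte passes through a phase of DNA synthesis, for which it makes replication factors and histones, and then through mitosis, for which it makes cyclins, kinesin motors and the kinetochore proteins that attach chromosomes to the spindle. Early response factors, such as the Fos, Jun, Egr and Nr4a proteins, are transcription factors whose messages appear within a short time of a stimulus.

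The label was checked against ILC2 marker genes. The mean of 16 ILC2 markers on the log2 scale lay between 8.72 and 8.94 on the 6 node arrays. Gata3, the factor that specifies ILC2s, was at 8.96 ± 0.09 at day 4 and 9.04 ± 0.24 at week 2 (SD, n = 3 in this and every later mean). Means of other cell types' markers lay between 3.82 and 4.04 for 17 B cell genes, between 3.87 and 4.11 for 19 macrophage genes, and at up to 5.41 for 12 T cell genes. Single members stood higher: the T cell genes Cd3g (8.82 ± 0.18 at day 4 and 9.03 ± 0.13 at week 2) and Lat (9.01 ± 0.25 and 9.45 ± 0.57), the B cell gene Ighm (8.45 and 8.83 ± 0.03), the macrophage list's Ctsd, a lysosomal protease (9.15 ± 0.33 and 9.28), the NK list's Ccl5 (10.45 and 9.66 ± 0.25) and the ILC3 list's Ltb (10.31 ± 0.21 and 10.23). The next highest macrophage marker was Lyz2, at 5.03 and 5.003. Cd4 and Cd8a were near the low end of the scale, with group means from 3.29 to 3.63. The 14 lung epithelial markers averaged 4.74 on day 4 replicate 1 and 3.66 to 4.07 on the other 5 node arrays, and the airway secretory gene Scgb1a1 read 8.58 on that array against 2.60 to 4.77 on the others. No member of the marker lists of ILC2s, T cells, B cells, macrophages, dendritic cells, NK cells, ILC3s, mast cells, granulocytes, stroma, red blood cells or epithelium passed the test between the times, except the ILC2 marker Il1r2 and the mast cell marker Cpa3. Over all genes 1.71% passed, so lists of this size would hold few such members in any case. The replicates of a node group correlated at r = 0.9781 to 0.9856 over all genes, and arrays of different times at r = 0.9655 to 0.9792.

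Between day 4 and week 2, node ILC2s lost messages of cell division and gained messages of early response factors, while Il5, Il13 and the factors that define ILC2s did not pass the test. A gene was called where its Benjamini-Hochberg adjusted p, from limma's moderated test over all 22180 genes, was under 0.05. By this rule 379 genes (1.71% of those tested) were called, 117 higher at week 2 (0.528%) and 262 lower (1.18%). In all 379 the 3 week 2 arrays lay wholly to one side of the 3 day 4 arrays; over all genes, the week 2 arrays lay wholly above in 7.67% and wholly below in 8.51%. The falls were also the larger changes: 200 called falls and 76 called rises were of a log2 difference of at least 1, and 28 falls and 0 rises reached 3. The median change over all genes was -0.003. Without day 4 replicate 2, 247 genes were called, and 207 of the 379 were called whichever node array was left out (172 falls and 35 rises). The rises depended more on single arrays: 55 were called without day 4 replicate 1, 50 without day 4 replicate 2, 60 without week 2 replicate 2 and 56 without week 2 replicate 3. Because these are bulk samples, fewer cells of a kind and less RNA per cell cannot be told apart.

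**Figure D1:**
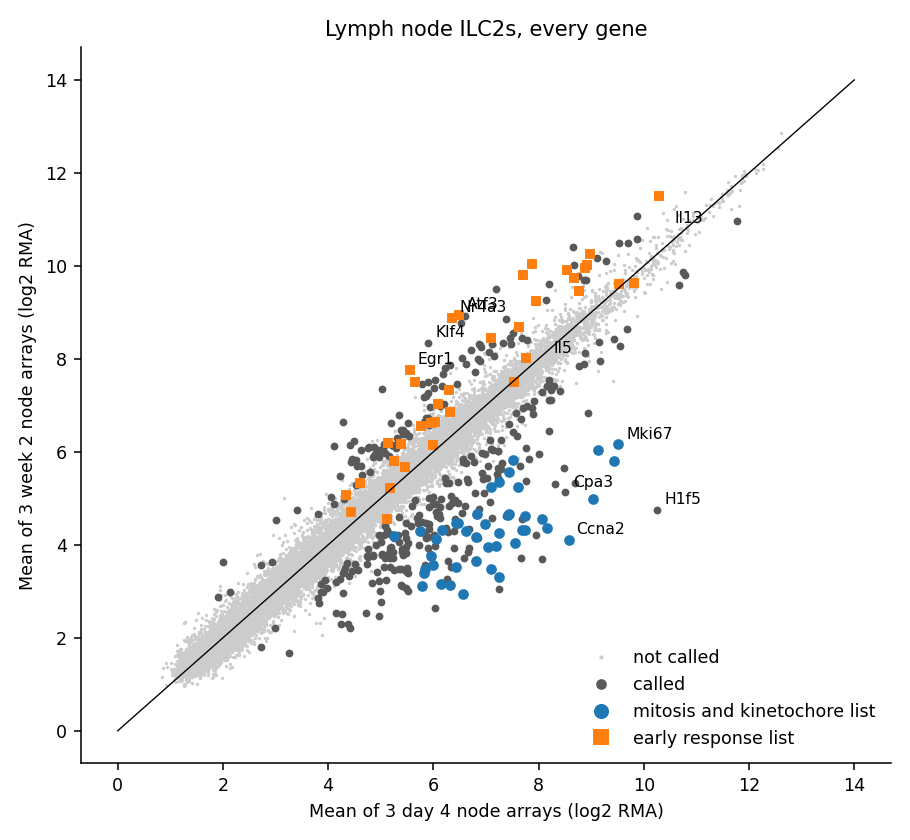
Mean log2 signal of each of the 22180 genes at week 2 (y) against day 4 (x) in node ILC2s, n = 3 arrays each; the line marks equal values. Members of the mitosis list (circles) lie below the line, most early response members (squares) lie above it, and Il5 and Il13 lie close to it.

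All 43 measured members of the mitosis and kinetochore list fell, against 1.18% of all genes called lower. The median change of the 43 was -2.79, to 0.145 of the day 4 level. The mean of the list on the log2 scale was 6.86, 7.51 and 6.93 on the 3 day 4 arrays and 4.38, 4.30 and 4.30 on the 3 week 2 arrays, so day 4 replicate 2 was the highest and the week 2 arrays were close together. All 43 were called under every alternative run, each left-out array included. Of all 262 called falls, 77 (29.4%) were in the lists of mitosis, DNA replication or histones, which hold 117 measured genes.

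Mki67, which codes for the proliferation marker Ki-67, read 9.26, 9.76 and 9.54 at day 4 and 6.20, 6.16 and 6.13 at week 2. Every day 4 array lay more than 3 log2 units above every week 2 array, and the fitted change was -3.36 ± 0.22 (SE; adjusted p = 7.476e-08). Ccna2, cyclin A2, which drives cells through DNA synthesis into mitosis, read 8.34, 9.02 and 8.35 at day 4 and 4.41, 4.18 and 3.73 at week 2. Its change of -4.47 ± 0.24 was the largest of the list (adjusted p = 3.158e-08). Ccnb2, a cyclin of mitotic entry, fell by 3.64, from 9.44 ± 0.43 to 5.80 ± 0.21. Ube2c, the ubiquitin-conjugating enzyme with which the anaphase-promoting complex marks mitotic cyclins for destruction, fell by 4.04, from 9.03 ± 0.25 to 4.98 ± 0.40.

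The motors and attachment proteins of the spindle fell with them. The motor Kif11, which pushes the spindle poles apart, read 7.74, 8.57 and 8.15 at day 4 and 4.90, 4.09 and 4.11 at week 2, a change of -3.79 ± 0.23. Kif15, a second spindle motor, changed by -3.61, and Kif23, which works in cytokinesis, by -2.78. The kinetochore proteins Nuf2 and Ndc80, partners in the complex that grips microtubules, changed by -3.93 and -3.51, and Knl1, which is not in the list and codes for the scaffold that anchors that complex, by -3.95. Birc5, or survivin, of the chromosomal passenger complex, changed by -3.41, and Top2a, the topoisomerase that untangles sister chromatids, by -3.09. Hmmr and Nusap1, both microtubule-binding, changed by -3.60 and -3.50. Foxm1, a transcription factor of late cell cycle genes, changed by -2.42, and the smallest change of the list was that of Mybl2, another such factor, at -1.07. Also among the 15 largest falls, and like Knl1 in no list, were Prr11 (-4.36 ± 0.31), Depdc1a (-4.18 ± 0.28), and Cdkn3 (-3.73 ± 0.33), which codes for a phosphatase of Cdk proteins.

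The promoters of 3 of these genes are shown because 2 short elements recurred in the promoters of the mitosis list. The 3 were picked, among the list's largest falls, for holding both elements in the stretch shown. The sequences are stretches of 180 bases of the gene's strand, from 150 bases before the start site to 30 bases after it, from RefSeq on the mouse build GRCm38.p6. Capitals mark CCAAT, the letters of the CCAAT box, and TTTGAA, those of the cell cycle homology region, on either strand, so that ATTGG and TTCAAA are the same letters read on the opposite strand. Ube2c lies at chr2:164769779-164769958 on the plus strand, Kif11 at chr19:37376232-37376411 on the plus strand, and Ccnb2 at chr9:70421525-70421704 on the minus strand.
Ube2c: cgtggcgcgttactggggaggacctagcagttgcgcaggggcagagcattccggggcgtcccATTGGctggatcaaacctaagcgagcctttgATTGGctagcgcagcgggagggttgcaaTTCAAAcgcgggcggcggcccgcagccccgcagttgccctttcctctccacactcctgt
Kif11: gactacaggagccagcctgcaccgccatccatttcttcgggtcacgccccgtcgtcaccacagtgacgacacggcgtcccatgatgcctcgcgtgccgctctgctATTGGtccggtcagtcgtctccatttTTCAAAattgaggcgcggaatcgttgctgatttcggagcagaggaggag
Ccnb2: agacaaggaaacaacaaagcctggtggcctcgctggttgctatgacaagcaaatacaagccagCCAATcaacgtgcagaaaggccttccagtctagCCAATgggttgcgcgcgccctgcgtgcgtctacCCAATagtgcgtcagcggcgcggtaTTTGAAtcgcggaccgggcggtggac
Searched on both strands over windows of 300 bases, from 250 before the start site to 50 after it, TTTGAA was present in 27 of the 36 mitosis genes with a promoter in the table (75%), in 39.8% of 216 called falls, in 10.8% of 74 called rises, and in 15.8% of all 16918 genes with a promoter. CCAAT was present in 75%, 54.2%, 37.8% and 38.4% of the same sets. Both together were present in 24 of the 36 mitosis genes (66.7%), against 6.4% of all genes. These are matches of letters and not measured binding sites.

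The DNA replication and S phase list, of factors that load and fire replication origins, make nucleotides or copy DNA, was called in part. Of 49 measured members 24 fell, against 1.18% of all genes, 0 rose and 25 did not pass. The median was -0.87, and 48 of the 49 were below 0. The list mean was 6.15, 6.42 and 6.07 on the day 4 arrays and 5.29, 5.24 and 5.25 on the week 2 arrays. Rrm2, the regulated subunit of the enzyme that makes deoxynucleotides, read 8.67, 9.20 and 8.24 at day 4 and 5.64, 5.34 and 5.03 at week 2, a change of -3.36 ± 0.30 (adjusted p = 2.732e-06). E2f8, a repressor of the E2F family, changed by -2.87 ± 0.19, and Cdc6, which loads the replicative helicase, by -1.98 ± 0.20. Chaf1a, which places histones on new DNA, changed by -1.89 and Uhrf1, which helps copy DNA methylation, by -1.88. Not all members were called: Pcna, the sliding clamp of the polymerases, read 9.55, 9.84 and 9.59 at day 4 and 9.40, 9.26 and 9.48 at week 2, with a change of -0.28 (adjusted p = 0.6519). Of the helicase subunits, Mcm3, Mcm5 and Mcm6 fell by 1.21, 1.10 and 0.92, and Mcm2, Mcm4 and Mcm7, at -0.60, -0.62 and -0.72, did not pass. Mcm3 was lost in 5 of the 6 fits that left out 1 node array (adjusted p at most 0.1871) and kept without day 4 replicate 3.

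The promoter of Cdc6 is shown for the letters GCGGGAA, a form of the site bound by E2F factors, in capitals. It lies at chr11:98908001-98908180 on the plus strand of GRCm38.p6.
Cdc6: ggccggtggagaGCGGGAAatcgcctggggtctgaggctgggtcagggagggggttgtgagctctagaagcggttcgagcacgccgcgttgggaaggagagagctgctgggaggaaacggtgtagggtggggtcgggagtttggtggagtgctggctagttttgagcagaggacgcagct
These letters were present in 16 of 41 replication genes (39%), in 14.8% of called falls and in 6.08% of all genes with a promoter. They were present in 0 of the 36 mitosis genes, while TTTGAA was present in 14.6% of replication genes, near its share of all genes.

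Of 25 measured genes of the histone clusters, 10 fell and 1 rose, against 1.18% and 0.528% of all genes. H1f5, a linker histone, had the largest called fall of all genes: it read 10.64, 11.18 and 8.93 at day 4 and 4.77, 3.44 and 6.04 at week 2, a change of -5.50 ± 0.55 (adjusted p = 8.616e-06). Both groups were widely spread for this gene, yet they lay well apart. H2bc12 changed by -3.19, H2ac15 by -3.13 and H2ac10 by -2.84. H2ac20 changed by -2.15, with day 4 replicate 3 at 5.63 against 7.45 and 8.12 on the other day 4 arrays, and its call was lost on leaving out day 4 replicates 1 or 2 or week 2 replicate 2 (adjusted p at most 0.06743). The gene that rose, H4c14, read 3.98, 3.75 and 4.62 at day 4 and 6.15, 6.02 and 6.23 at week 2 (change 2.02 ± 0.30). Histone genes of a cluster are close copies, so signal may be shared between them on these probe sets.

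**Figure D2:**
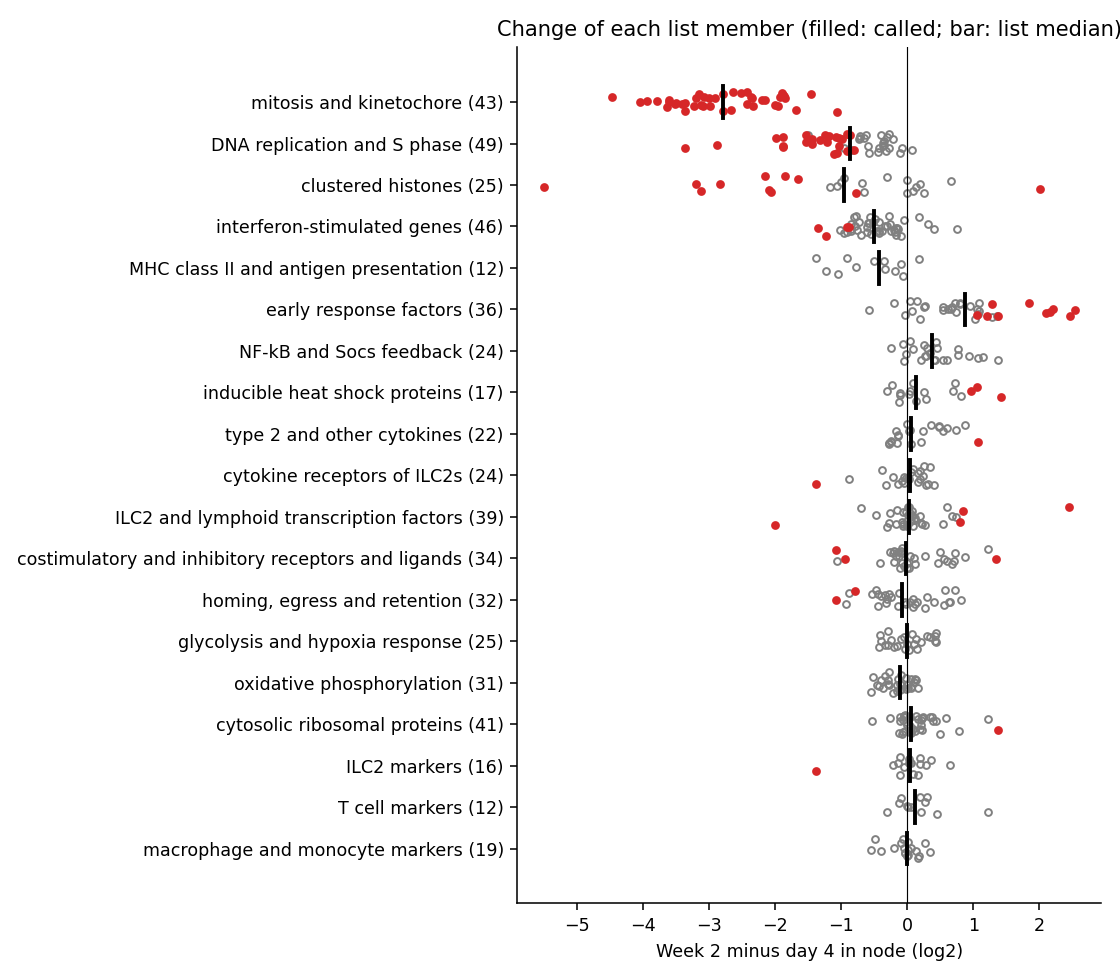
Change from day 4 to week 2 in node ILC2s (x, log2) for each measured member of 19 gene lists (y, with the number of members); filled points were called and the bar marks the list median. The mitosis list lies wholly below -1, the early response list mostly above 0, and the lists of cytokines, receptors, metabolism and cell type markers centre near 0.

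Genes that act in G1 were mixed. Of 20 G1 cyclins and Cdk inhibitors, 2 rose and 1 fell, against 0.528% and 1.18% of all genes. Cdkn1a, which codes for the Cdk inhibitor p21, read 6.12, 6.20 and 7.48 at day 4 and 9.14, 9.02 and 8.61 at week 2. Its change was 2.32 ± 0.34 (adjusted p = 0.000594), with no overlap between the groups, although day 4 replicate 3 lay between the other day 4 arrays and the week 2 arrays. The antiproliferative gene Btg2 rose by 1.06 ± 0.25 (adjusted p = 0.04257, lost on leaving out day 4 replicates 1 or 2 or week 2 replicates 2 or 3, where it reached at most 0.2589). Cdkn2c, the Cdk4 and Cdk6 inhibitor p18, fell by 1.46 ± 0.25. The D cyclin Ccnd2 was at 8.65 and 9.03 (day 4 and week 2 means) and Cdkn1b, p27, at 8.19 and 8.27, and neither passed.

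Of 36 early response factors, 10 rose and 0 fell, against 0.528% of all genes called higher. Their median change was 0.878, and 33 of the 36 were above 0. In 21 the week 2 arrays lay wholly above the day 4 arrays, against 7.67% of all genes. The mean of the list was 6.69, 6.66 and 7.26 on the day 4 arrays and 7.61, 7.81 and 7.97 on the week 2 arrays. Day 4 replicate 3 was thus the highest of its group, as it was for 29 of the 36 single members and for 79 of all 117 called rises. In the lung, day 4 replicate 3 also had the highest list mean of its group (8.25, against 7.42 and 7.45). Whether the 2 arrays share animals or handling is not stated. How many members were called turned on single arrays: 3 without day 4 replicate 1, 5 without day 4 replicate 2, 14 without day 4 replicate 3, and 11, 5 and 6 without week 2 replicates 1, 2 and 3. The median change stayed between 0.758 and 1.097 in these fits. 

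Within the list, the nuclear receptors Nr4a1 and Nr4a3, which lymphocytes switch on after receptor signals, showed the spread most plainly. Nr4a3 read 5.66, 5.47 and 7.93 at day 4 and 8.97, 8.70 and 8.98 at week 2, a change of 2.54 ± 0.55 (adjusted p = 0.02195). Its call was lost in 5 of the 6 fits that left out 1 node array (adjusted p at most 0.1632); it was kept without day 4 replicate 3. Nr4a1 read 7.05, 7.13 and 8.95 at day 4 and 9.53, 9.68 and 10.21 at week 2, a change of 2.10 ± 0.45 (adjusted p = 0.01901), and was lost in 4 of those 6 fits, kept without day 4 replicate 3 and without week 2 replicate 1. Atf3, a stress-induced factor, read 5.73, 5.92 and 7.81 at day 4 and 9.06, 8.90 and 8.90 at week 2, a change of 2.46 ± 0.47 (adjusted p = 0.00711). It was lost without day 4 replicate 1 or 2, at adjusted p of at most 0.05997.

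The zinc finger factor Egr1 was steadier. It read 5.45, 5.28 and 5.94 at day 4 and 7.51, 7.81 and 7.97 at week 2, a change of 2.21 ± 0.32 (adjusted p = 0.0005227), called in all 6 fits with an array left out. Gadd45b, a stress-response regulator of kinase signalling, read 7.61, 7.54 and 8.49 at day 4 and 9.84, 10.20 and 10.08 at week 2, a change of 2.16 ± 0.31, also called in all 6. The AP-1 subunits Fosl2, Junb and Fos rose by 1.85 ± 0.35, 1.37 ± 0.24 and 1.29 ± 0.30; Fosl2 was lost without day 4 replicate 1 (adjusted p = 0.0583), and Fos without day 4 replicates 1 or 2 or week 2 replicates 2 or 3 (at most 0.2053). Zfp36, which degrades cytokine messages, rose by 1.21 ± 0.25, from 10.28 to 11.49, and was lost in the same 4 fits as Fos (at most 0.1252). Egr2 rose by 1.06 ± 0.21 and was lost without day 4 replicate 1 or week 2 replicate 2 (at most 0.0688). Fosb, Jun, Ier2, Dusp1 and Zfp36l1 had changes of 1.29, 1.09, 1.07, 1.06 and 1.08 and did not pass, and Myc, at 7.75 and 8.01, changed by 0.26.

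**Figure D3:**
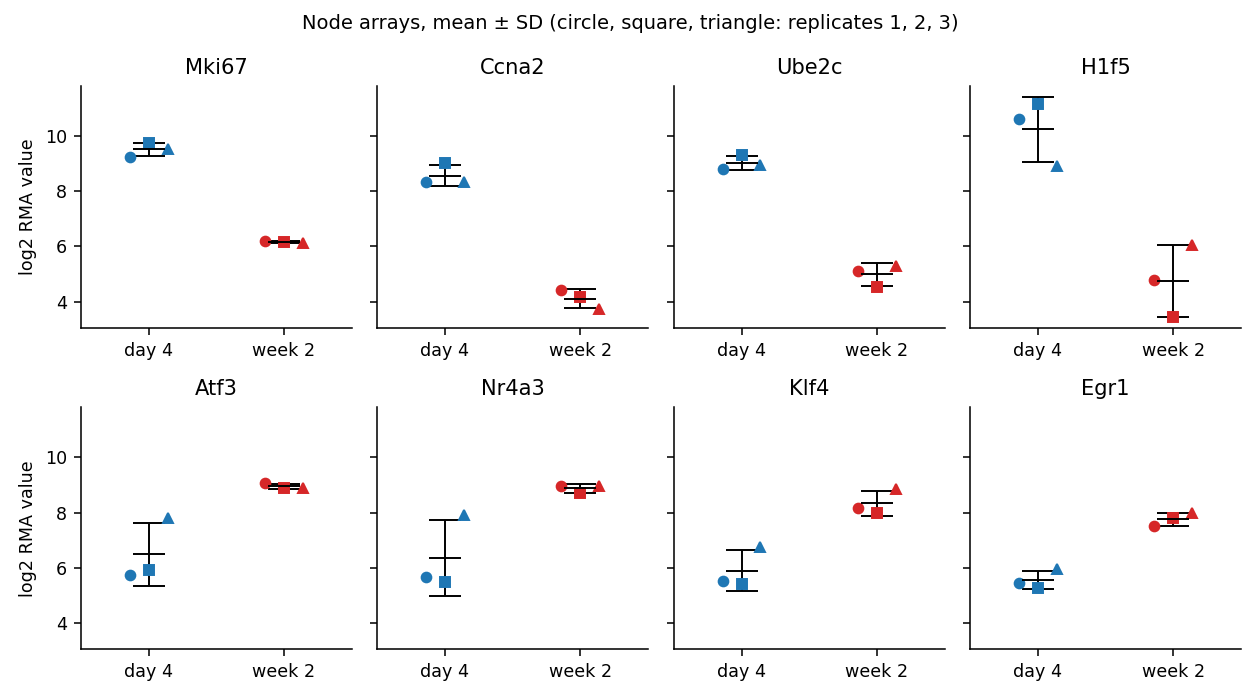
Log2 signal of 8 genes on each node array at day 4 (blue) and week 2 (red), with the mean ± SD of 3 arrays; the symbol gives the replicate. The 4 genes of division and chromatin (top) fall by more than 3 on the mean, and in Atf3, Nr4a3 and Klf4 (bottom) day 4 replicate 3 lies above the other day 4 arrays.

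Other genes among the 15 largest rises fell outside that list. Klf4, a factor linked to quiescence in lymphocytes, read 5.52, 5.42 and 6.75 at day 4 and 8.17, 7.996 and 8.86 at week 2, a change of 2.45 ± 0.41 (adjusted p = 0.002142). Hes1, a target of Notch signals, read 6.41, 6.18 and 6.99 at day 4 and 8.92, 9.11 and 8.28 at week 2, a change of 2.25 ± 0.22 (adjusted p = 8.119e-06, the lowest of the 15). Tiparp, a target and feedback inhibitor of the aryl hydrocarbon receptor, rose by 2.32 ± 0.30, from 7.18 ± 0.66 to 9.50 ± 0.30, and the zinc finger gene Zbtb10 by 2.33 ± 0.35. All 4 were called in each of the 6 fits with an array left out. Fam71a rose by 2.37 ± 0.44 and lies within 10 kb of Atf3 on chromosome 1. Its call was lost without day 4 replicate 2 (adjusted p = 0.05187).

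Small RNA genes were also among the rises. Of 80 snoRNAs tested, which guide chemical changes of ribosomal and other RNAs, 8 rose and 0 fell (10% called, against 1.71% of all genes), with a median change of 0.485. Snord118, which takes part in ribosomal RNA processing, read 8.73, 8.73 and 8.49 at day 4 and 10.30, 10.55 and 10.36 at week 2, a change of 1.75 ± 0.18 (adjusted p = 1.069e-05). Probe sets named for 3 microRNAs of 1 cluster on chromosome 14, the miR-17 cluster, which promotes proliferation and survival of lymphocytes, rose as well; the probe sets do not separate precursor from mature RNA. Their mature sequences are shown with the seed, bases 2 to 8, in capitals, since the seed sets which messages a microRNA pairs with; they are from RefSeq, with positions on the plus strand of GRCm38.p6 of chr14:115043684-115043706 for miR-17-5p and chr14:115044183-115044205 for miR-20a-5p, the first and last of the 4.
miR-17-5p: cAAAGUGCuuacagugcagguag
miR-18a-5p: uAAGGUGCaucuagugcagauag
miR-19a-3p: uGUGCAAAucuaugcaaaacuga
miR-20a-5p: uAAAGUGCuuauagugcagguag
miR-17-5p and miR-20a-5p share the seed AAAGUGC, and the other two have seeds of their own. Mir17 read 4.16, 4.30 and 5.001 at day 4 and 6.74, 6.40 and 5.58 at week 2, a change of 1.76 ± 0.34 (adjusted p = 0.009237). It was lost in 4 of 6 fits with an array left out, at adjusted p of at most 0.06673, and kept without day 4 replicate 3 and without week 2 replicate 3. Mir18 changed by 1.33 ± 0.22 (adjusted p = 0.001963) and Mir20a by 1.26 ± 0.30 (adjusted p = 0.04347); Mir18 was called in all 6 such fits and Mir20a in 1, without week 2 replicate 1 (otherwise at most 0.2273). Mir19a, at 1.77, 1.44 and 1.38 against 1.97, 3.39 and 2.26, had a change of 1.01 and did not pass (adjusted p = 0.1275).

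Interferon-stimulated genes, which code for antiviral proteins, were mostly a little lower at week 2. Of 46 measured members 4 fell, against 1.18% of all genes, and 0 rose. The median change was -0.505, and 42 were below 0. In 20 the week 2 arrays lay wholly below the day 4 arrays, against 8.51% of all genes. Oas3, a sensor of double-stranded RNA, read 7.40, 6.84 and 6.89 at day 4 and 5.49, 5.61 and 5.99 at week 2, a change of -1.34 ± 0.23 (adjusted p = 0.003259). Cmpk2 fell by 1.23, Rsad2, the antiviral protein viperin, by 0.92 and Mx1 by 0.88. Day 4 replicate 1 had the highest list mean (6.62, against 6.05 and 6.34 on the other day 4 arrays and 5.84 to 5.89 at week 2). Mx1 and Rsad2 were each lost in 5 of 6 fits with an array left out, kept without day 4 replicate 2, while Oas3 and Cmpk2 were called in all 6. Between 2 members (without day 4 replicates 1 or 3 or week 2 replicates 2 or 3) and 8 members (without day 4 replicate 2) were called.

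The promoter of Oas3 is shown for the letters of the interferon response element, GAAA, any 2 bases and GAAA again, in capitals. It lies at chr5:120777630-120777809 on the minus strand of GRCm38.p6.
Oas3: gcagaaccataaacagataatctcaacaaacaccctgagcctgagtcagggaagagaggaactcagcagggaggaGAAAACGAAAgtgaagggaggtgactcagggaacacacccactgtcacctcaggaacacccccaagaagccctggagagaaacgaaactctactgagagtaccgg
The element was present in 19 of 35 interferon-stimulated genes (54.3%), in 6.94% of called falls and in 3.36% of all genes with a promoter. Genes of MHC class II, which present antigen to T cells, were likewise lower without any passing: 11 of 12 were below 0, with a median of -0.428. H2-Ab1 was at 8.71 at day 4 and 7.47 at week 2, and H2-Aa at 7.59 and 6.54.

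The type 2 cytokines did not pass the test. Of 22 cytokine genes 1 rose and 0 fell, against 0.528% and 1.18% of all genes. The week 2 arrays lay wholly above the day 4 arrays in 6 and wholly below in 1, against 7.67% and 8.51% of all genes. Il5 read 8.27, 8.07 and 8.07 at day 4 and 8.10, 8.004 and 7.89 at week 2, and the change of -0.14 had a 95% interval of -0.55 to 0.28 (adjusted p = 0.9613). Il13 read 10.26, 10.54 and 10.49 at day 4 and 10.65, 10.83 and 10.89 at week 2; the arrays did not overlap, and the change of 0.36 had an interval of -0.10 to 0.82 (adjusted p = 0.7351). Il4 was at 7.15 ± 0.07 and 7.63 ± 0.24, and Csf2, which codes for GM-CSF, at 8.13 ± 0.28 and 8.73 ± 0.19. For both, the week 2 arrays lay wholly above the day 4 arrays. The 95% intervals of their changes were 0.11 to 0.85 and 0.19 to 1.01. These intervals are not adjusted for the number of genes, and neither gene passed (adjusted p of 0.3125 and 0.1978). Il6, at 7.59 ± 0.28 and 7.83 ± 0.21, did not pass either. The cytokine that rose was Il2, a growth factor of lymphocytes, which read 4.75, 5.24 and 5.20 at day 4 and 5.89, 6.46 and 6.03 at week 2 (change 1.07 ± 0.24; adjusted p = 0.02566). It was lost on leaving out day 4 replicates 1 or 2 or week 2 replicates 2 or 3 (adjusted p at most 0.1708). The chemokine Cxcl3, which attracts neutrophils, fell by 1.69 ± 0.28, from 6.79 to 5.11, the 1 called of 14 chemokine genes, against 1.71% of all genes called.

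The factors that define ILC2s did not pass, and their intervals bound the change. Gata3 changed by 0.09 (95% interval -0.32 to 0.50), Rora by 0.02 (-0.35 to 0.40), Id2 by 0.07 (-0.29 to 0.43) and Bcl11b by 0.19 (-0.17 to 0.54). Of 39 transcription factors of ILC2s and other lymphocytes, 3 rose (Klf4, Klf6 and Bhlhe40) and 1 fell, against 0.528% and 1.18% of all genes. The one that fell was Myb, a factor of immature and dividing blood cells, which read 6.26, 6.65 and 5.92 at day 4 and 4.74, 3.63 and 4.46 at week 2 (change -1.998 ± 0.32; adjusted p = 0.001326). Klf6 and Bhlhe40 rose by 0.84 and 0.80, at adjusted p of 0.03564 and 0.045. Klf6 was lost whichever node array was left out (adjusted p at most 0.2168), and Bhlhe40 in all but the fit without day 4 replicate 3 (at most 0.2733).

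Among receptors, Il1r2, the decoy receptor of IL-1, was the 1 called of 24 cytokine receptor genes, against 1.71% of all genes called. It read 7.32, 6.81 and 6.65 at day 4 and 6.39, 5.12 and 5.11 at week 2, a change of -1.39 ± 0.32 (adjusted p = 0.02939), with week 2 replicate 1 above the other week 2 arrays. It was lost on leaving out day 4 replicates 1 or 2 or week 2 replicates 2 or 3 (adjusted p at most 0.1869). Il7r, the receptor of the survival cytokine IL-7, changed by -0.04 (95% interval -0.36 to 0.28), Il2ra by 0.06 (-0.33 to 0.44) and Il17rb, the IL-25 receptor, by 0.16 (-0.17 to 0.49). Of 34 costimulatory and inhibitory molecules, 1 rose and 2 fell, against 0.528% and 1.18% of all genes. Tnfsf8, the ligand of CD30, rose by 1.35 ± 0.21, from 5.95, 5.84 and 5.80 to 7.32, 7.21 and 7.09 (adjusted p = 0.001326). Its receptor Tnfrsf8 fell by 0.94 ± 0.19 and the inhibitory receptor Tigit by 1.08 ± 0.24; leaving out single arrays took these to adjusted p of at most 0.1048 and 0.1617, with Tnfrsf8 lost without day 4 replicate 2 or week 2 replicates 2 or 3, and Tigit without day 4 replicates 1 or 3 or week 2 replicates 1 or 2. Icos and Klrg1, a costimulatory receptor and an activation marker of ILC2s, changed by -0.12 (95% interval -0.57 to 0.34) and -0.22 (-0.66 to 0.22).

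Genes of movement between tissues included 2 called falls of 32, against 1.18% of all genes. S1pr1, the receptor with which lymphocytes leave lymph nodes, read 7.54, 7.65 and 7.33 at day 4 and 6.31, 6.35 and 6.63 at week 2, a change of -1.08 ± 0.20 (adjusted p = 0.005101), called in all 6 fits with an array left out. Itgb1, the integrin beta 1 chain, fell by 0.79 ± 0.15, from 9.14 to 8.36, and was lost without day 4 replicates 1 or 2 or week 2 replicate 2 (adjusted p at most 0.06683). Cd69, which retains lymphocytes in tissue by removing S1pr1 from the surface, was at 9.15 ± 0.62 and 9.80 ± 0.13, and Klf2, which drives S1pr1 transcription in T cells, at 6.78 ± 0.46 and 7.38 ± 0.21, and neither passed. Ccr7, the receptor for entry into lymph nodes, changed by -0.02 (95% interval -0.47 to 0.43).

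Cpa3, a carboxypeptidase of mast cell granules, fell from 8.60, 8.77 and 8.14 at day 4 to 4.75, 5.35 and 5.28 at week 2, a change of -3.38 ± 0.36 (adjusted p = 1.538e-05), called in all 6 fits with an array left out. The other 14 mast cell and basophil markers measured did not pass, and their group means lay between 1.46 and 4.49, including Fcer1a at 1.72 and 1.76 and Mcpt8 at 3.02 and 2.86. The mean over the 15 was 3.09 to 3.14 at day 4 and 2.88 to 3.01 at week 2. Alox5, the enzyme that starts leukotriene synthesis, fell by 1.10 ± 0.25, from 8.41 to 7.31, and was lost in 5 of 6 fits with an array left out (adjusted p at most 0.1581), kept without day 4 replicate 3.

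Metabolic and biosynthetic lists held few calls. Over all genes 1.71% were called, so lists of this size would hold few in any case. Of 25 glycolysis and hypoxia genes, 31 of oxidative phosphorylation, 27 of lipid uptake and oxidation, 25 of cholesterol and fatty acid synthesis, and 41 of Myc targets in ribosome biogenesis, 0 were called by limma in either direction, with list medians from -0.117 to 0.234. Slc3a2, the heavy chain of amino acid transporters, rose by 1.03 ± 0.18, from 7.52 to 8.55 (adjusted p = 0.003466), as 1 of 25 amino acid genes. Ppp1r15a, which restarts translation after stress, rose by 1.41 ± 0.25 as 1 of 33 genes of the unfolded protein response. Of 17 heat shock genes 3 rose, against 0.528% of all genes. They were Dnajb1, Hsph1 and Dnajb4, by 1.43, 1.05 and 0.97. Dnajb1 read 6.77, 6.87 and 7.01 at day 4 and 8.29, 8.49 and 8.15 at week 2. All 3 were lost without day 4 replicate 1 or 2, Dnajb1 and Dnajb4 also without week 2 replicate 2, Hsph1 and Dnajb4 without week 2 replicate 3, and Hsph1 without week 2 replicate 1 (adjusted p at most 0.07123 for Dnajb1, 0.0921 for Hsph1 and 0.2827 for Dnajb4). Arg1, which ILC2s hold at a high level, was at 9.53 ± 0.07 and 9.55 ± 0.03.

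**Figure D4:**
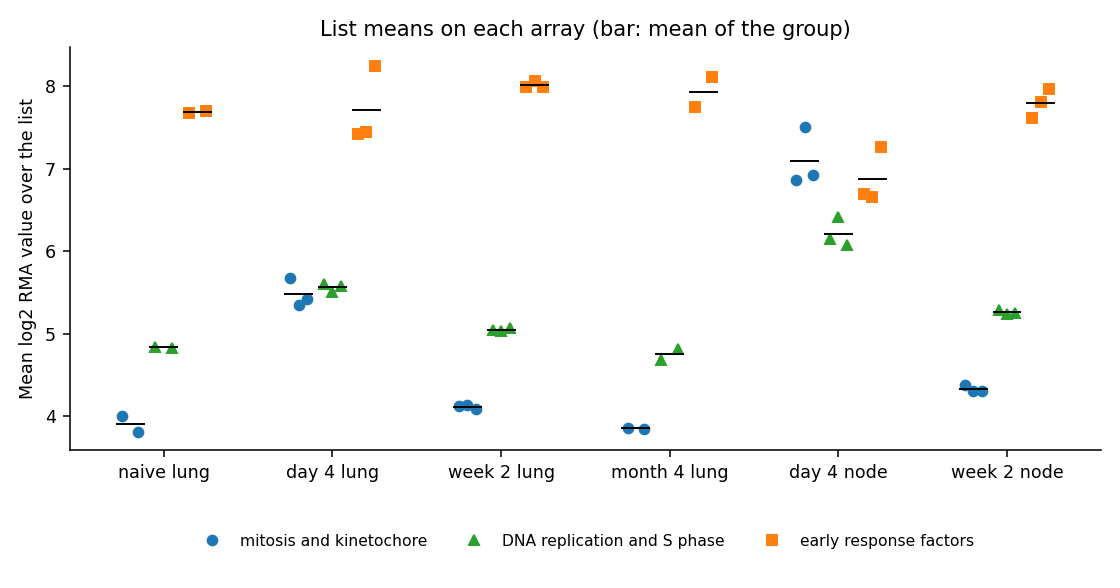
Mean log2 signal (y) over the mitosis, DNA replication and early response lists on each of the 16 arrays, by group (x); bars mark group means. The mitosis mean is highest on the 3 day 4 node arrays and falls at week 2 in both tissues, and the early response mean is lowest on the day 4 node arrays.

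The same interval was set beside lung ILC2s, to ask which changes were seen in both tissues. The tissues share no array. In the lung 401 genes (1.81%) were called, 93 higher (0.419%) and 308 lower (1.39%). Genes lower at week 2 in both numbered 109, which is 41.6% of the node's falls and 35.4% of the lung's. Genes higher in both numbered 23, or 19.7% of the node's rises and 24.7% of the lung's, and 1 gene was called in opposite directions. For the mitosis list 32 of 43 members also fell in the lung, with a median of -1.29, from list means of 5.67, 5.35 and 5.42 at day 4 to 4.12, 4.13 and 4.09 at week 2. The list's day 4 mean was thus higher in the node, while its week 2 mean was near that of the lung; naive lung arrays were at 4.00 and 3.81. For interferon-stimulated genes 23 of 46 fell in the lung, with a median of -0.997, and for MHC class II 7 of 12, with a median of -1.32. Dendritic cell markers, of which 4 of 16 fell in the lung, averaged 5.56, 5.51 and 4.64 on the day 4 lung arrays and 4.23, 4.19 and 4.59 on the week 2 lung arrays, against 4.39 to 4.49 and 4.21 to 4.31 in the node. Their part in the lung values was not tested. For early response factors 3 rose and 4 fell in the lung, with a median of 0.430. The list means there were 7.42, 7.45 and 8.25 at day 4 and 7.99, 8.06 and 7.99 at week 2.

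Whether the change itself differed between tissues was tested as an interaction, the node's change minus the lung's. This called 40 genes (0.18%), 25 with a lower value (0.113%) and 15 with a higher value (0.0676%). Leaving out 1 of the 12 arrays gave 11 to 52 genes. The count moved by over 1.5 times without day 4 replicate 2 of the node (12), without week 2 replicates 1, 2 or 3 of the node (23, 25 and 22), without day 4 replicate 2 of the lung (20), and without week 2 replicates 1, 2 or 3 of the lung (19, 11 and 19). Day 4 replicates 1 and 2 and week 2 replicate 3 of the lung had the highest macrophage marker means of these lung arrays (5.54, 5.58 and 5.36, against 4.17 to 4.42 on the other 3). Without these 3 arrays 13 genes were called, 11 with a higher and 2 with a lower value, and 8 of them were among the 40. No node array exceeded 4.11.

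Of the mitosis list 14 of 43 members had a called difference, all with a lower value, against 0.113% of all genes. Of 49 replication genes, 25 histones and 46 interferon-stimulated genes 0 were called. With 0.18% of all genes called, lists of this size would hold few or none in any case. The median differences of these 3 lists were -0.443, -0.698 and 0.513, against -1.447 for the mitosis list and -0.01 over all genes. Ccna2 fell by 4.47 in the node and by 1.99 in the lung, a difference of -2.48 ± 0.34 (adjusted p = 0.004225). The lung arrays read 6.55, 6.02 and 5.96 at day 4 and 4.18, 4.37 and 4.02 at week 2, so the day 4 node arrays lay above the day 4 lung arrays and the week 2 arrays of the tissues overlapped. Kif18a, a motor that dampens chromosome movement and is in no list, fell by 2.10 in the node, from 6.12, 6.67 and 6.40 to 4.37, 4.51 and 4.02, and had a change of -0.10 in the lung, from 4.23, 4.18 and 4.40 to 4.01, 4.30 and 4.18. Its difference was -1.99 ± 0.27 (adjusted p = 0.003712). Its day 4 lung values already lay near the medians of all genes on those arrays (4.16 to 4.17). So did those of Kif14, a motor also in no list (4.35, 4.26 and 4.34), so a fall in the lung may have gone unseen. Kif14 and Cenpf of the mitosis list differed by -2.18 and -2.003. These 4 kept their calls in all 12 fits that left out 1 array; without the 3 lung arrays Ccna2 alone of them kept its call, and the differences of Kif18a, Kif14 and Cenpf were -1.86, -2.11 and -2.09 (adjusted p from 0.06003 to 0.1346).

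Among the differences with a higher value, Tff1, Ctla4, Lag3 and Itgae fell in the lung and were not called in the node, Tigit fell in both, and Egr2 fell in the lung and rose in the node. Tff1, a secreted trefoil peptide, read 9.20, 8.88 and 8.79 at day 4 and 4.91, 4.76 and 4.52 at week 2 in the lung, while the node arrays read 5.43, 5.06 and 4.92 and then 4.80, 4.58 and 4.32. The difference was 3.65 ± 0.36 (adjusted p = 0.0002985). The inhibitory receptors Ctla4, Lag3 and Tigit differed by 3.10 ± 0.50, 2.05 ± 0.32 and 1.96 ± 0.34, with node changes of 0.46, 0.004 and -1.08 and lung changes of -2.64, -2.05 and -3.04. The node means of Lag3 (4.171 and 4.175) lay near the medians of all genes on the node arrays (4.09 to 4.19). Those of Ctla4 (4.624 and 5.088) and Tff1 (5.138 and 4.565) lay not far above. A fall from such levels may have gone unseen in the node. The node means of Tigit were 4.844 and 3.762, so the size of its fall there may be understated. Itgae, the integrin alpha chain CD103 that binds E-cadherin, was at 7.57 and 8.15 in the node and fell by 1.83 in the lung, a difference of 2.41 ± 0.43 (adjusted p = 0.02647). Ccr2, a chemokine receptor with which monocytes leave the bone marrow, went the other way: it was at 10.05 and 9.62 in the node and rose by 0.96 in the lung, a difference of -1.40 ± 0.22 (adjusted p = 0.01303). Egr2, the gene called in opposite directions, read 4.78, 5.29 and 5.34 and then 6.28, 6.32 and 5.98 in the node, and 8.17, 7.49 and 8.01 and then 6.59, 6.66 and 6.59 in the lung. Its difference was 2.34 ± 0.29 (adjusted p = 0.002512), and the levels of the 2 tissues lay closer together at week 2 than at day 4. Tff1 and Egr2 were called in all 12 fits with an array left out. Lag3 and Ccr2 were lost without week 2 lung replicate 2, Ctla4 without day 4 node replicate 2 or week 2 lung replicates 2 or 3, Tigit in 6 of the 12 fits and Itgae in 10. Without the 3 lung arrays Tff1, Egr2, Ctla4 and Lag3 were called, and Tigit, Itgae and Ccr2 were not (adjusted p of 0.05024, 0.1874 and 0.1209).

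**Figure D5:**
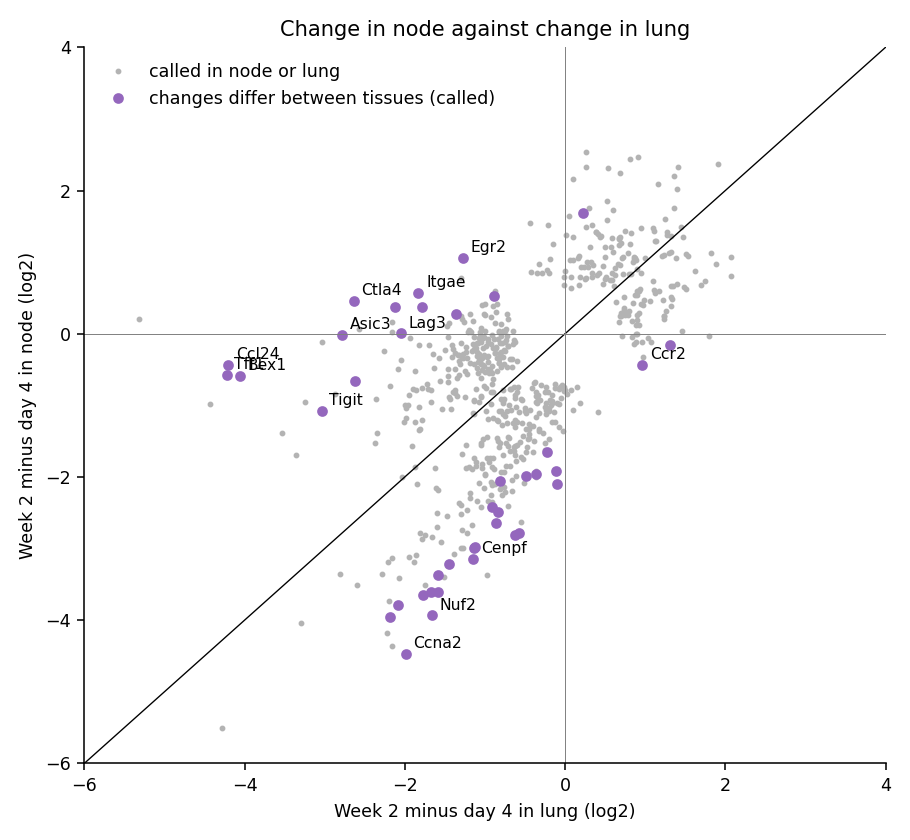
Change from day 4 to week 2 in node ILC2s (y, log2) against the change in lung ILC2s (x, log2) for genes called in either tissue; purple points are the 40 genes whose changes differed by the interaction test, and the line marks equal change. The purple points form a group of mitosis genes below the line and a group near 0 on the y axis and below 0 on the x axis.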

How the data were processed

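RNA of ILC2s was measured on 16 one-colour Affymetrix arrays. Extraction used Trizol and labelling a Nugen Encore biotin kit, per the labels' protocols. Each deposited file value is a log2 signal of 1 probe set, which the authors computed with RMA in Expression Console (per the submitters' processing notes, which carry no versions). RMA equalizes the arrays' distributions, so a change in total RNA cannot be seen. Scanner files were not used here, detection was not assessed, and the number of arrays limits precision.

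Of 41345 probe sets, 23521 had 1 gene symbol in the platform annotation, 1814 several and 16010 none, and 23328 matched the RefSeq gene table. Where a gene had several probe sets (1082 genes), the one with the highest mean stood for it. Group means of all 16 arrays were fitted with limma 3.58.1 in R 4.3.3 (10 residual and 6.52 prior degrees of freedom), and tests were two-sided with Benjamini-Hochberg adjustment. The interaction is the node's change minus the lung's. Intervals (95%) come from the moderated fit. The genes named are the 15 largest called rises and falls, up to 5 called members of each list, a set of ILC2 genes and, for the interaction, the 8 largest each way and up to 3 called members of each list. Others are named as list members or after their values were seen. The members, gene lists and naming rule were chosen with earlier results of these data known. The procedure was tested on simulated data with known changes; both with a separate spread for each group and with a single spread per gene, unchanged genes made up a larger share of the calls than the threshold of 0.05 allows, more so in the first, so calls near the threshold are less certain than their adjusted p. Alternatives were other normalizations, filters, limma options, array weights, subsets of arrays, a replicate block and leaving out arrays. Plots were made in Python 3.11.15 (matplotlib 3.10.9).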

Additional observations from a re-analysis of the deposited data

Results flagged for a closer look

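The changes of 23 named genes differed between node and lung by the interaction test. The values below are the node's change minus the lung's on the log2 scale.

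For 8 named genes of the mitosis list, and for Kif14, Kif18a and Knl1, which act in mitosis but are in no list, the node's change was the lower. The difference was -2.476 for Ccna2, -2.269 for Nuf2, -2.214 for Kif23, -2.182 for Kif14 and -2.024 for Hmmr. It was -2.003 for Cenpf, -1.994 for Kif18a, -1.935 for Kif15, -1.872 for Ccnb2, -1.772 for Knl1 and -1.703 for Kif11. Of these, Kif14, Kif18a and Kif23 were not called in the lung itself. Kif14 and Kif18a lay near the medians of all genes there already at day 4. Kif23 lost its call in 6 of the 12 fits that left out 1 array, Hmmr in 10 and Kif15 in 5, and Nuf2 was lost without day 4 node replicate 2 or week 2 lung replicate 2. Ccnb2 was lost in 8 of the 12 (adjusted p at most 0.09283), and Knl1 and Kif11 in 10 each (at most 0.1236 and 0.1351). When the 3 lung arrays with the highest macrophage markers were left out, Ccna2 was the 1 of these 11 still called, and the adjusted p of the others lay between 0.06003 and 0.4274. Ccr2 differed by -1.398, with arrays of 10.04, 10.01 and 10.12 and then 9.64, 9.49 and 9.72 in the node, and 9.36, 9.14 and 9.06 and then 10.04, 10.25 and 10.15 in the lung.

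The other differences were positive. Those of Cd83, Tigit, Lag3 and Ctla4, all regulators of lymphocyte responses, were 1.639, 1.958, 2.052 and 3.104. Egr2 differed by 2.337 and Itgae by 2.405. The metallothionein Mt2 differed by 2.486, the ion channel gene Asic3 by 2.771, Bex1 by 3.47, the trefoil peptide gene Tff1 by 3.652 and the eosinophil-attracting chemokine Ccl24 by 3.771. In the node Asic3 read 4.01, 4.08 and 4.07 at day 4 and 3.86, 4.25 and 4.00 at week 2, while the lung arrays fell from 8.51, 8.22 and 8.09 to 5.46, 5.44 and 5.54. The node values of Asic3 lay near the medians of all genes on the node arrays (4.09 to 4.19), so a fall may have gone unseen. The same holds for Ccl24, which read 4.18, 3.91 and 3.71 at day 4 and 3.87, 3.54 and 3.09 at week 2 in the node. Ccl24 read 9.22 and 8.59 on day 4 lung replicates 1 and 2, the 2 of that group with the higher macrophage marker means, and 6.58 on replicate 3. The part of these markers in the Ccl24 difference was not tested beyond leaving those arrays out: without the 3 lung arrays high in macrophage markers the difference was 2.43 (adjusted p = 0.06468). Asic3 and Bex1 were called in all 12 fits with an array left out; without those 3 lung arrays Asic3 was called (adjusted p = 0.04147), and Bex1 and Mt2 were not (adjusted p of 0.1028 and 0.0681). Cd83 lost its call in 8 of them, and Mt2 and Ccl24 in 7 each.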

How the results depend on the processing

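The node comparison called 356 to 413 genes under repeated quantile normalization, centred arrays, no dim genes, limma's trend and robust options, averaged probe sets and the 6 node arrays alone, 556 on the 12 day 4 and week 2 arrays (added after seeing the data) and 629 with array weights. The fit of 12 arrays leaves out the naive and month 4 lung arrays, which otherwise enter the shared spread. Their replicates correlated at r = 0.9366 and 0.9467, lower than those of every other group. Leaving out 1 node array gave 247 to 380. The interaction, at 40 genes, gave 25 with quantile normalization repeated, 58 without dim genes, 205 with array weights (115 higher) and 102 on the 12 day 4 and week 2 arrays alone (55 higher). Leaving out 1 array gave 11 to 52, and leaving out the 3 lung arrays high in macrophage markers, chosen after seeing the data, gave 13 (11 higher). Same-numbered node arrays of the 2 times did not deviate together (r = -0.057, 0.092 and 0.057). Between lung and node, same-numbered arrays had r = 0.092, 0.028 and 0.184 at day 4, and 0.028, 0.012 and 0.019 at week 2. Day 4 arrays of unlike number had r from -0.173 to 0.092. The labels do not say that equal numbers mark shared animals, so the numbers were not taken as pairs. With the replicate block 403 genes were called in the node and 46 by the interaction. A replicate block within each time point gave 68 by the interaction (45 higher), so the interaction's balance of directions turned with the setting. Of the 110 genes named for the node 71 were called, and only these could lose a call. Over the settings that kept all arrays, results of the 110 kept their side of the threshold 867 times and lost their call 12 times. Those of 20 genes named for the interaction, all called, did so 170 and 10 times. Over all settings, fits without some arrays included, calls were lost 103 times in the node and 89 times in the interaction. No called direction reversed. The cause of these movements was not tested. With 3 arrays a group, small changes could pass unseen.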

Other observations

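Further called genes lay in no list and were chosen after their values were seen. Anxa2, a membrane-binding annexin, read 8.70, 9.35 and 8.74 at day 4 and 7.07, 6.74 and 6.69 at week 2, a change of -2.09 (adjusted p = 8.597e-06). The galectins Lgals3 and Lgals1 fell by 1.55 and 1.07, Vim, the intermediate filament vimentin, by 0.97, and Plp2 by 1.03. Each was called in all 6 fits that left out 1 node array. Lgals3 lies within 10 kb of the mitosis gene Dlgap5, which fell by 2.33.

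Among the rises, Atp8a2, a phospholipid flippase, read 6.01, 5.62 and 5.72 at day 4 and 7.38, 7.60 and 7.42 at week 2, a change of 1.68 (adjusted p = 7.893e-06). In the lung it read between 3.76 and 4.06 at both times. Jag1, a ligand of Notch receptors, rose by 1.47, and Nr1d1, a repressor of the circadian clock, by 1.495, and both also rose in the lung, by 1.09 and 1.44. Lmna, which codes for the nuclear lamins A and C, rose by 1.34 in the node. These 4 were called in all 6 such fits. Ciart, another circadian repressor, rose by 1.06 but was lost without day 4 replicate 1 or week 2 replicates 1 or 3 (adjusted p at most 0.1333).

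Some called neighbours share or adjoin a locus. Aspn and Cenpp overlap on chromosome 13 and changed by -2.20 and -2.08, and Snord99 and Snhg12 overlap on chromosome 4 and rose by 1.37 and 1.21. Signal of such pairs cannot be told apart here.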
